A study of Caenorhabditis elegans with 2 samples.

Results

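The genes described here encode the shared E3 subunit and further parts of the 2-oxoacid dehydrogenase complexes of Caenorhabditis elegans. They are dld-1, pdha-1, pdhb-1, dlat-1, pdhk-2, ogdh-1, dlst-1 and dbt-1, 8 of the 19973 nuclear coding genes of the annotation. They were chosen by the peaks they hold in these data, dld-1 for the high signal of its peak, so the peaks are given as a description and carry no test. A fusion of enhanced green fluorescent protein (eGFP) with NHR-129, a nuclear hormone receptor, was mapped on chromatin by ChIP-seq in whole larvae at the second stage (L2), and the files analysed were lists of peaks. There was 1 group of 2 biological replicates, males and females pooled, and both came from strain OP339, whose genotype is unc-119(ed3) III; wgIs339. Its integrated transgene carries the tagged receptor, in animals with the unc-119(ed3) allele, and the promoter that drives the fusion is not stated in the labels. The antibody is recorded as nhr-129. No untagged strain is in the design, so signal that does not depend on the fusion cannot be told apart. Whole animals were used, so the tissue of any signal is not known.

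The lists were 1 list of 6626 peaks thresholded on reproducibility, and relaxed lists of 30000 calls each for the pooled reads, replicate 1 and replicate 2, all in the ce11 assembly. The signal of a call is the authors' own value on a scale that is not given. It ran from 63.4 to 6467 over the thresholded peaks with a median of 122, and the pooled and replicate lists differ in scale. Read depth is not given in the sources used here. A gene was said to have a peak where a summit lay between 2 kb upstream of its annotated start and its end.

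As background, a 2-oxoacid dehydrogenase complex joins enzymes called E1, E2 and E3 in the mitochondrion. E1 removes carbon dioxide from a 2-oxoacid with thiamine diphosphate as cofactor, E2 passes the acyl group from its lipoyl arm to coenzyme A, and E3, the flavoprotein dihydrolipoamide dehydrogenase, oxidises the lipoyl arm again and makes NADH. Pyruvate, 2-oxoglutarate and the branched-chain 2-oxoacids each have an E1 and E2 of their own. One E3, encoded by dld-1, serves them all and also the glycine cleavage system. The pyruvate complex makes the acetyl-CoA that enters the tricarboxylic acid cycle, the 2-oxoglutarate complex is a step of that cycle, and the branched-chain complex takes part in the breakdown of valine, leucine and isoleucine. Pyruvate dehydrogenase kinase phosphorylates E1 of the pyruvate complex and lowers its activity.

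The DNA under 5 of the peaks is printed because those peaks carry the results that follow. The peaks upstream of dld-1, pdhk-2 and dbt-1 were the 3 of highest signal, that of ogdh-1 lay farthest from its gene, and those of dld-1 and dlst-1 lay at small non-coding genes. The dld-1 sequence is chrIV:14464178-14464378 on the plus strand, 100 bp on either side of the summit, and its capitals mark the non-coding gene LLC1.120, which is annotated on the minus strand. The others are on the minus strand, as their genes are. The pdhk-2 sequence is chrIII:8741541-8741730 and the dbt-1 sequence is chrII:7945276-7945442, each a whole peak narrower than most. The ogdh-1 sequence is chrIV:4705332-4705532 and the dlst-1 sequence is chrV:6709193-6709393, again 100 bp on either side of the summit. Capitals mark a match to TTGCNNAA in pdhk-2, to TGTCAT in dbt-1, to GAGAGA read on the other strand in ogdh-1, and the stretch of the non-coding gene W02F12.11 in dlst-1. All were read from the RefSeq genome WBcel235, the same assembly as ce11.
dld-1: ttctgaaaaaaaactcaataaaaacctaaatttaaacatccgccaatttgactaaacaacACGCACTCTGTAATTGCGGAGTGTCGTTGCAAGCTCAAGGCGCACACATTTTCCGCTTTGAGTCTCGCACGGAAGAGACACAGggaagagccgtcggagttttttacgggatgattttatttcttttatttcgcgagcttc
pdhk-2: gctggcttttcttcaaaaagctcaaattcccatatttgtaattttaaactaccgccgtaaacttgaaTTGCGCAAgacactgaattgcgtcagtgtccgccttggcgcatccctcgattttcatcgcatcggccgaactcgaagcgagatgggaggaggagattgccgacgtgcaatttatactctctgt
dbt-1: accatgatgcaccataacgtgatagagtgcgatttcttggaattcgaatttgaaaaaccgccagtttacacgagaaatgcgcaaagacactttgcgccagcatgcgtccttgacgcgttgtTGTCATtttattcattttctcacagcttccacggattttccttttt
ogdh-1: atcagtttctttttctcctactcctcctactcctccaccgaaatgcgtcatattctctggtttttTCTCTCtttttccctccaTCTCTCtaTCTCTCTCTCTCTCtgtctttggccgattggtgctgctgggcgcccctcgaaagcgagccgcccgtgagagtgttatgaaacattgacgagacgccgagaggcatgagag
dlst-1: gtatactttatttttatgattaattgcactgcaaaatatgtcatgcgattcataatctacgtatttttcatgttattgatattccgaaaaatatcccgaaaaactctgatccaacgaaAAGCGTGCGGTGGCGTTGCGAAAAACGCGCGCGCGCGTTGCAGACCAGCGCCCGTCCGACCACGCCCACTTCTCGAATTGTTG

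Of the 8 genes, 6 had a thresholded peak: dld-1, pdhb-1, pdhk-2, ogdh-1, dlst-1 and dbt-1. Over all coding genes 28.0% had one (5589 of 19973), and among the 8777 coding genes as long as the members, from 1900 to 7033 bp, 31.3% did. With only the stretch from 2 kb upstream to 100 bp downstream of the start counted, the same 6 genes had a peak, where the share over all coding genes was 23.8%. The rule used these peaks, so nothing is read from the difference. The E1 alpha gene pdha-1 and the E2 gene dlat-1, both of the pyruvate complex, had none. In the relaxed pooled list all 8 genes had a call, where 61.3% of coding genes did. Together the 6 genes held 8 thresholded peaks, 3 of them at pdhk-2. Of the 8, 6 lay upstream of the start and 5 within 400 bp of it, 2 lay in introns of pdhk-2, and 0 lay in a coding exon or UTR. The shares of all thresholded peaks at such positions are not given here, so the placement is not read as a trait of these genes. The number of calls in the 8 gene windows was 30 in the pooled list, 27 in replicate 1 and 23 in replicate 2.

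**Figure D1:**
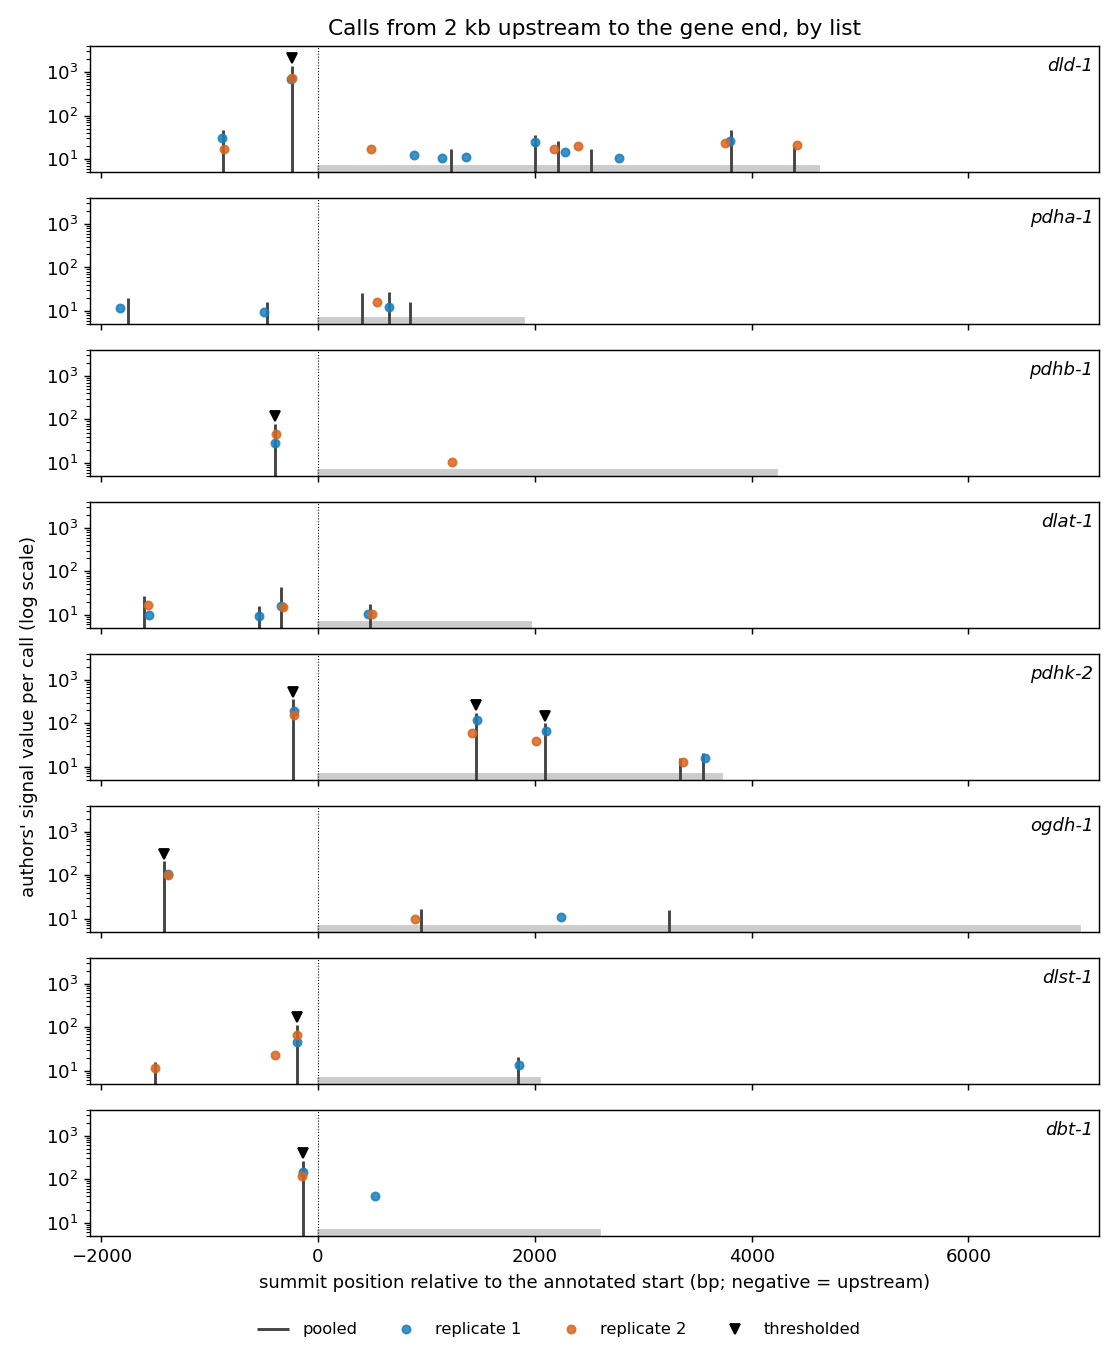
Every call between 2 kb upstream and the gene end for the 8 genes, by summit position relative to the annotated start (bp) and the authors' signal (log scale). Black lines are pooled calls, blue and orange points are calls of replicate 1 and replicate 2, black triangles mark the thresholded peaks and grey bars the gene. The dld-1 call 239 bp upstream stands at 1414, and the pdha-1 and dlat-1 panels hold no triangle.

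The gene for the shared E3, dld-1 (WBGene00010794), lies on chromosome IV from 14464517 to 14469136 on the plus strand. Its peak, at 14464096 to 14464458, had its summit 239 bp upstream of the start and a signal of 1414 in the pooled list, 687 in replicate 1 and 729.8 in replicate 2. It ranked 18 of the 6626 thresholded peaks, 30 among the calls of replicate 1 and 11 among those of replicate 2, so it was among the strongest calls of every list. The strongest peak of 20 other coding genes had a higher signal. The summit lay inside LLC1.120 (chromosome IV, 14464238 to 14464320), an 83 bp gene of biotype ncRNA annotated as an unclassified non-coding RNA, and 180 bp past the end of the upstream neighbour nspg-9 on the same strand. Genes of biotype ncRNA held the summit of 8.10% of all thresholded peaks (537 of 6626). Signal at dld-1 and at LLC1.120 cannot be told apart, since the peak covers both the non-coding gene and the stretch before dld-1.

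The 7 other pooled calls in the dld-1 window all had lower signals than the thresholded peak, whose signal was 29.8 times that of the strongest of them. That call, 874 bp upstream of the start in an intron of nspg-9, had a signal of 47.5 in the pooled list, 31.1 in replicate 1 and 17.0 in replicate 2. A call 3811 bp downstream of the start, in an intron of dld-1, had a pooled signal of 46.3, with 26.3 in replicate 1 and 22.9 in replicate 2. The annotation holds a second dld-1 transcript that starts 1900 bp downstream of the first. The nearest pooled call to that start lay 2005 bp downstream of the first start, in a coding exon, and had a signal of 35.7. In replicate 1 the call at 2006 bp had 24.0. The overlapping replicate 2 call, with its summit at 2180 bp in an intron, had 16.9. Each of these pooled calls lay below the lowest thresholded signal, 63.4.

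Among the E1 genes, ogdh-1 of the 2-oxoglutarate complex (WBGene00020679, chromosome IV, 4696979 to 4704011, minus strand) had the peak of higher signal. It spanned 4705247 to 4705616, with a signal of 208 in the pooled list, 105 in replicate 1 and 99.3 in replicate 2, so the replicates lay close together. Its summit was 1421 bp upstream of the start, about midway to the end of the next gene cif-1, which lies 1422 bp from the summit, and 411 bp from the snoRNA gene K08F11.8. The peak just outside the 2 kb window lay 2721 bp upstream of ogdh-1 with a signal of 79.7 and rank 5301. The ogdh-1 sequence printed above holds a run of TC repeats at its summit, and 8 matches to GAGAGA, some overlapping, lay within 150 bp of it.

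The E1 beta gene of the pyruvate complex, pdhb-1 (WBGene00015413, chromosome IV, 3399672 to 3403908, plus strand), had the weakest thresholded peak of the set. The peak at 3399095 to 3399464 had a signal of 78.0 in the pooled list, 28.4 in replicate 1 and 47.3 in replicate 2. Replicate 2 was the higher, and the call ranked 8637 in replicate 1 and 4003 in replicate 2. The summit lay 392 bp upstream of pdhb-1 but 49 bp from the start of dyf-3, a gene needed for cilia that is transcribed the other way. The starts of the pair lie 441 bp apart, so the peak cannot be given to one gene.

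The E1 alpha gene pdha-1 (WBGene00011510, chromosome II, 8066285 to 8068184, plus strand) had 5 pooled calls, the strongest at 27.9 in a coding exon 652 bp downstream of the start. The overlapping calls had 12.4 in replicate 1 and 15.8 in replicate 2, so the call was weak in every list. The gene ufd-2, which encodes a ubiquitin chain assembly factor, ends 91 bp before pdha-1 on the same strand. The nearest upstream thresholded peak (signal 292, rank 847) lay 3853 bp before pdha-1 and 309 bp from the start of ufd-2. The annotation used does not mark operons.

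Of the E2 genes, dbt-1 of the branched-chain complex had the highest signal, dlst-1 of the 2-oxoglutarate complex followed, and dlat-1 of the pyruvate complex had no thresholded peak. The dbt-1 gene (WBGene00014054) lies on chromosome II from 7942602 to 7945206 on the minus strand. Its peak, at 7945276 to 7945442, had a signal of 264 in the pooled list, 146 in replicate 1 and 118 in replicate 2, at ranks of 1029, 1024 and 1079. The summit lay 142 bp upstream of the start, the closest of the set, and 148 bp past the end of the upstream gene ZK669.5 on the same strand. A call in a dbt-1 intron, 529 bp downstream of the start, had a signal of 41.3 in replicate 1, with no call in the dbt-1 body in replicate 2 or the pooled list.

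The dlst-1 gene (WBGene00020950) lies on chromosome V from 6707056 to 6709101 on the minus strand. Its peak, at 6709108 to 6709477, had a signal of 115 in the pooled list, 46.7 in replicate 1 and 66.7 in replicate 2, so replicate 2 was the higher. The summit was 192 bp upstream of the start and 18 bp from W02F12.11, a 153 bp gene of biotype ncRNA on the plus strand (6709123 to 6709275). The peak covers the whole of W02F12.11, so signal at dlst-1 and at this non-coding gene cannot be told apart. The printed sequence shows the division: the part away from dlst-1 is rich in A and T, and the capitals, which lie nearer dlst-1, hold a run of CG repeats.

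The dlat-1 gene (WBGene00009082) lies on chromosome V from 14445323 to 14447290 on the minus strand and had 4 pooled calls. The strongest had a signal of 43.6 in the pooled list, 15.9 in replicate 1 and 15.0 in replicate 2, and ranked 9465 of the pooled calls. It lay 338 bp upstream of dlat-1 and 23 bp from the start of fntb-1, a divergent gene for the beta subunit of protein farnesyltransferase.

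The kinase gene pdhk-2 (WBGene00022719, chromosome III, 8737686 to 8741412, minus strand) was the 1 member with 3 thresholded peaks, a number reached or passed by 375 coding genes (1.88%) and by 6 of the 52 genes of related pathways. The strongest, at 8741541 to 8741730, had its summit 226 bp upstream of the start and a signal of 357 in the pooled list, 195 in replicate 1 and 157 in replicate 2. The second, in an intron 1454 bp downstream of the start (8739773 to 8740142), had 172 in the pooled list, 118 in replicate 1 and 58.9 in replicate 2. The third, in an intron 2095 bp downstream (8739132 to 8739501), had 99.5 in the pooled list, 66.7 in replicate 1 and 39.4 in replicate 2. All 3 were higher in replicate 1, the intronic ones by more on the log2 scale than the upstream one. Another peak lay beyond the window, 2883 bp past the end of the gene, nearest the start of ZK370.4, with a signal of 639 and rank 146, higher than any of the 3.

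**Figure D2:**
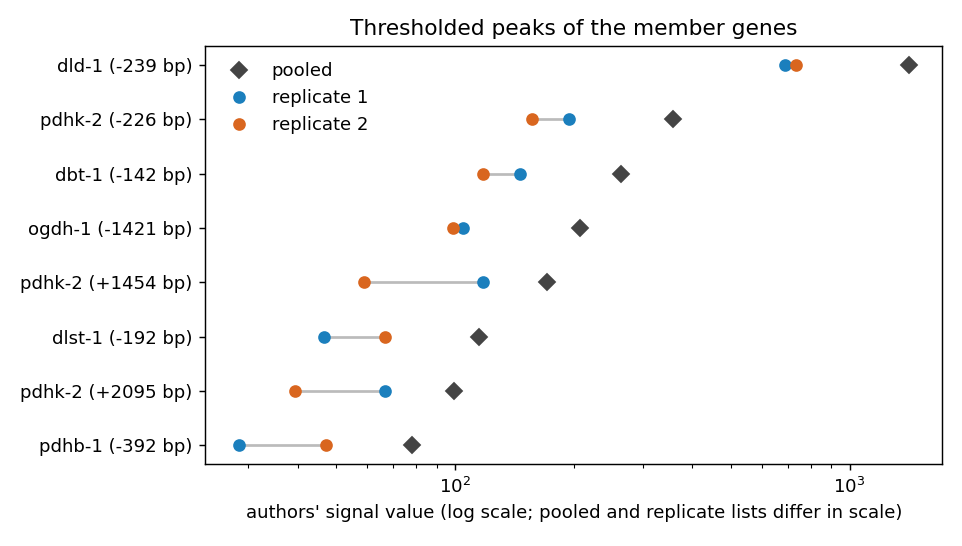
Authors' signal (log scale) of the 8 thresholded peaks of the 6 genes in the pooled list (diamonds), replicate 1 (blue) and replicate 2 (orange), with the summit position relative to the gene's start. The dld-1 peak at 1414, 687 and 729.8 stands to the right of all others in each list, and the pdhb-1 peak has the lowest value in the pooled list and replicate 1.

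The order of the genes by their strongest peak was dld-1, pdhk-2, dbt-1, ogdh-1, dlst-1 and pdhb-1, and it was the same in the pooled list, replicate 1 and replicate 2. The dld-1 signal was 3.96 times that of pdhk-2 in the pooled list, 3.53 times in replicate 1 and 4.65 times in replicate 2. The steps below were smaller. The pdhk-2 signal was 1.33 times that of dbt-1 in each replicate, and that of dbt-1 was 1.39 times that of ogdh-1 in replicate 1 and 1.19 times in replicate 2. Set across the replicates, the values of these neighbours nearly met but did not overlap. The lower pdhk-2 value (157) lay above the higher dbt-1 value (146), and the lower dbt-1 value (118) above the higher ogdh-1 value (105). The ogdh-1 signal was 2.25 times that of dlst-1 in replicate 1 and 1.49 times in replicate 2. The lowest step, dlst-1 over pdhb-1, was 1.65 and 1.41 times in the same lists, so dlst-1 was the higher within each replicate. Only across the replicates did these neighbours overlap, since dlst-1 in replicate 1 (46.7) was no higher than pdhb-1 in replicate 2 (47.3). Comparisons across the replicates do not take off the general shift between them. With 2 replicates of 1 group there was no test of these steps.

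All 8 peaks had a call in both replicates, and so did 6593 of all 6626 thresholded peaks, a list chosen on reproducibility. The summits of the 8 peaks' replicate calls lay within 100 bp of the pooled one. The farthest was 85 bp away, at the pdhk-2 peak 2095 bp downstream of the start. The share of all thresholded peaks with summits so close is not given here, so nothing is read from these counts. The log2 difference of replicate 1 minus replicate 2 had a median of 0.19 over the 8 peaks (SD 0.59), against 0.31 over the 6593 thresholded peaks with a call in both (SD 0.49, quartiles 0.02 and 0.60). It was positive at 5 of the 8 and at 5023 of the 6593. The pdhk-2 and dbt-1 peaks upstream of their starts lay at the general median, 0.31 each. The difference was 1.00 at the pdhk-2 peak 1454 bp downstream and 0.76 at that 2095 bp downstream, while it was -0.51 at dlst-1 and -0.74 at pdhb-1. Both of these negative values fell below the 5th percentile of all peaks, -0.45, so they were the members whose replicates differed most from the general shift. At dld-1 it was -0.09.

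**Figure D3:**
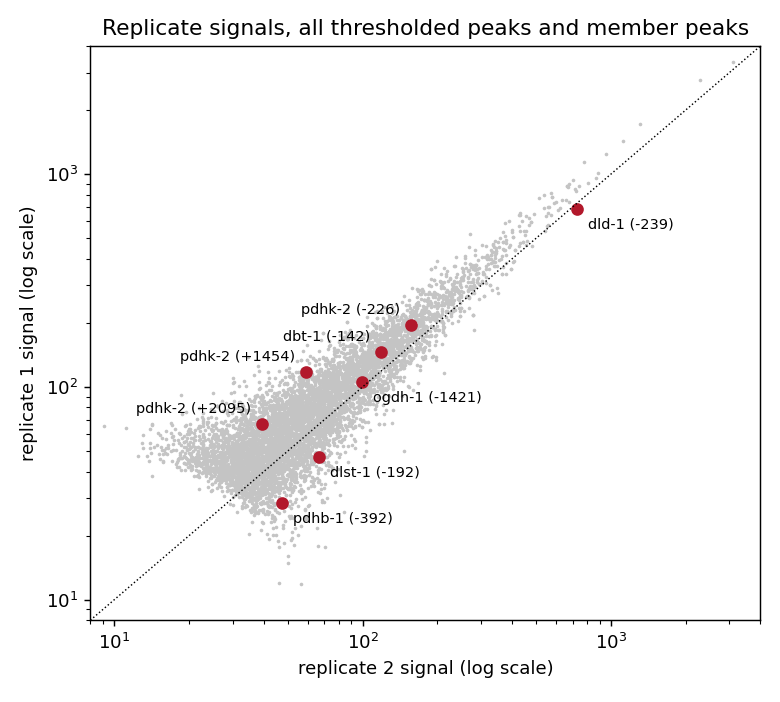
Signal in replicate 1 against replicate 2 (both log scales) for the 6593 thresholded peaks with a call in both (grey) and the 8 member peaks (red, with the summit position in bp from the start). The dotted line marks equal signal; 5 of the 8 member peaks lie above it, and dlst-1, pdhb-1 and dld-1 lie below it.

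Every 30-base word in the 201 bp around each of the 8 summits (172 words per window) occurred once in the nuclear genome, so none of the windows repeats elsewhere at that length. The GC content within 150 bp of the summit had a median of 38.0% over the 8 peaks, from 33.6% to 50.2%, against 40.9% over all thresholded peaks (quartiles 36.9% and 45.2%). The ogdh-1 window was the member with the highest GC content. Of the peak widths, 5 of the 8 were the 370 bp that most peaks had.

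Letters of 8 known motifs were searched on both strands in the 301 bp around each summit. The nuclear receptor half-site AGGTCA was in 0 of the 8 windows, where 10.2% of all 6626 windows held it. TGTCAT, the core of the site bound by SKN-1, was in 3, at dbt-1, dlst-1 and the pdhk-2 peak 1454 bp downstream, against 17.7% of all windows. GAGAGA was in 3, at ogdh-1 and both intronic peaks of pdhk-2, against 49.9%. TGACGT, a half-site of the cyclic AMP response element, was in 2, at dld-1 and in the same pdhk-2 intron as TGTCAT, against 12.8%. TTGCNNAA, of the C/EBP type, was in 2, at the upstream pdhk-2 peak and dlst-1, against 24.5%, and the GATA motif TGATAA was in 2, both in pdhk-2 introns, against 23.2%. The forkhead motif GTAAACA was in 1, at the upstream pdhk-2 peak, against 6.75%, and the E-box CACGTG was in 1, at the pdhk-2 peak 2095 bp downstream, against 10.9%. No one of the 8 motifs was in more than 3 windows. A match says only that the letters are there.

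The genes around these complexes were described with a list of 52, which like the members was chosen with earlier results known. Of these, 39 (75%) had a thresholded peak, where 28.0% of all coding genes did, and nothing is read from a list so chosen. The strongest signal per gene had a median of 236 over the 6 members with a peak, 174 over the 39 genes and 143 over all coding genes with a peak. No gene of the list had a stronger peak than dld-1, which was chosen for the high signal of its peak. The strongest peak of 10 of the 39 lay nearer the start of a coding gene outside the list, and such a peak cannot be given to one gene.

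**Figure D4:**
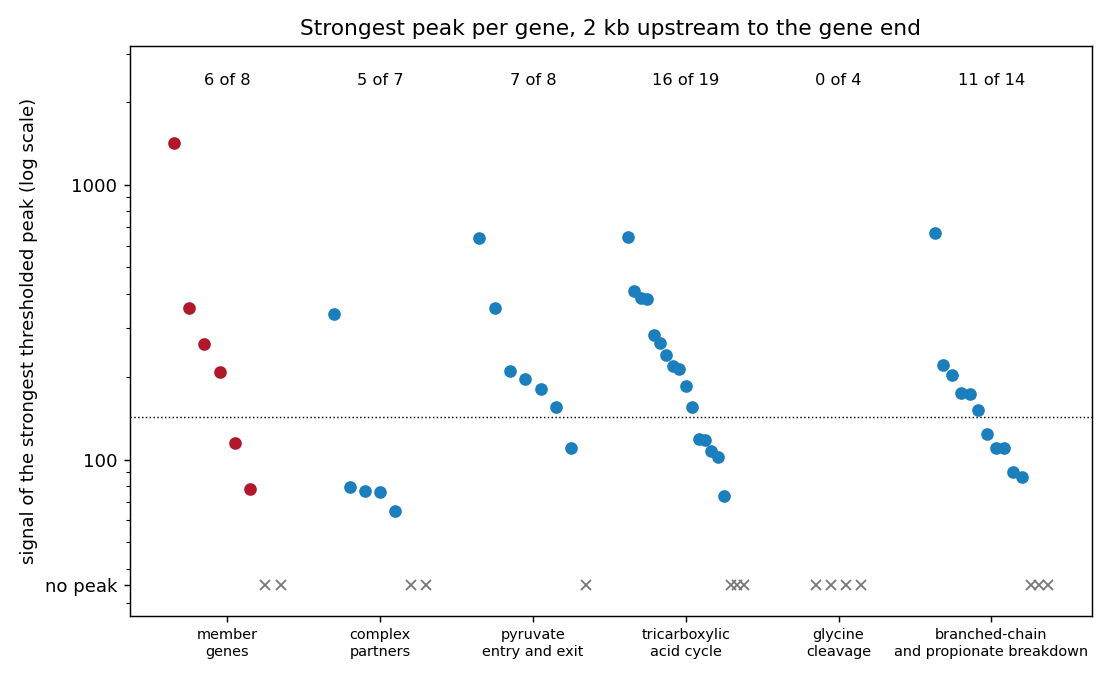
Signal of the strongest thresholded peak per gene (log scale) for the 8 member genes (red) and 5 groups of related genes (blue), with genes that have none as grey crosses at the bottom. The count above each group is of genes with a peak, the dotted line is the median of 143 over all coding genes with one, and dld-1 at 1414 lies above every other point.

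Partner genes of the complexes, which are further subunits, a phosphatase and genes for the lipoyl and thiamine cofactors, had a peak in 5 of 7. The strongest was at lias-1, whose product makes the lipoyl group of the E2 arms, with 339 in the pooled list, 176 in replicate 1 and 157 in replicate 2. The others named were low: bckd-1A, E1 alpha of the branched-chain complex, had 79.3, ogdh-2, a second E1 of the 2-oxoglutarate type, had 77.1, and pdp-1, the phosphatase that acts against the kinase, had 76.0. These lay near pdhb-1 in signal. The ogdh-2 peak, 2365 bp downstream of its start, lay nearer the start of ZK836.3, and the pdp-1 peak lay nearer that of ZK973.8. Neither bckd-1B, the E1 beta partner of bckd-1A, nor tpk-1, which makes the thiamine cofactor, had a thresholded peak.

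Genes of pyruvate entry and exit had a peak in 7 of 8. The pyruvate carboxylase gene pyc-1 had 641 in the pooled list, 377 in replicate 1 and 271 in replicate 2, and pck-2, for phosphoenolpyruvate carboxykinase, had 357. Both of these peaks lay nearer the start of another gene: that of pyc-1, 1677 bp upstream, was nearest D2023.4, and that of pck-2, 1069 bp downstream, was nearest R11A5.6. The lactate dehydrogenase gene ldh-1 had 209 and pck-1 had 197. The 1 gene without was mpc-2, of the mitochondrial pyruvate carrier.

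Of the 19 genes listed under the tricarboxylic acid cycle, 16 had a peak. The list holds several forms of isocitrate and malate dehydrogenase, among them idh-1, idh-2 and mdh-1, and not every form need act in the cycle. The flavoprotein subunit of succinate dehydrogenase, sdha-1, had 646 in the pooled list, 357 in replicate 1 and 288 in replicate 2. The succinyl-CoA ligase genes sucl-1 and suca-1 had 411 and 383, and the aconitase gene aco-2 had 386. The aco-2 peak, 337 bp upstream of its start, lay nearer the start of eef-1B.1. The 3 without were sucl-2, sucg-1 and sdhb-1. The dld-1 peak had a higher signal than that of sdha-1 in each list. Since dld-1 was chosen for the high signal of its peak, nothing is read from this.

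In branched-chain and propionate breakdown 11 of 14 genes had a peak. The branched-chain aminotransferase gene bcat-1 had 669.7 in the pooled list, 411 in replicate 1 and 257 in replicate 2. The propionyl-CoA carboxylase genes pccb-1 and pcca-1 had 221 and 202, and alh-8, for methylmalonate-semialdehyde dehydrogenase, had 174. The 3 without were mccc-2, mmab-1 and acdh-1. The glycine cleavage system, the other user of E3, had a peak in 0 of its 4 genes, gldc-1, gcst-1, gcsh-1 and gcsh-2. Over all coding genes 28.0% had one, the share to set beside each group count. With 4 genes the count of 0 is not read as an absence at that system. Over all groups, 10 of the 13 genes without a thresholded peak had a relaxed pooled call and 3 had none. Of all coding genes, with or without a thresholded peak, 61.3% had such a call. The share among those without a thresholded peak is not given here, so nothing is read from the 10.

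The 5 thresholded peaks whose log2 signals in the pooled list, replicate 1 and replicate 2 lay nearest to those of the dld-1 peak were at genes of other kinds. The nearest, at a Euclidean distance of 0.15, was in an intron of Y62E10A.13, 3595 bp from its start. The signals of that peak were 1411, 741 and 678 in these lists. The next lay 731 bp from the start of nspc-17, at a distance of 0.21. A peak in a coding exon of pks-1, a polyketide synthase gene, followed at 0.24. The nearest coding start to it, that of C41A3.2, was 15210 bp away. Then came one 24 bp from the start of the ribosomal protein gene rpl-12 at 0.25, and one 38 bp from the start of tasp-1 at 0.30. None of the 5 was higher in replicate 2, as dld-1 was. The likeness is over 3 lists of which the pooled one holds the reads of both replicates, and says nothing of the genes.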

How the data were processed

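Per the files deposited with the samples, the authors made relaxed lists of peaks and background for each replicate and for the pooled alignments, each with a control that was not analysed here, and chose the thresholded list by the irreproducible discovery rate. Neither aligner nor peak caller is given in the sources used here. No scale is stated for the deposited signal of each call. The deposited −log10 q-value was 4.15 for every thresholded peak and so could not order them. Per the labels, library fragments were 150 to 350 bp long. The ce11 lists were used throughout, the ce10 list for 1 alternative.

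Summits were taken from the deposited offset and assigned to genes of Ensembl release 115 (1-based coordinates); replicate values are those of the strongest overlapping call. The members and lists were chosen with earlier results of these data known. Named were all members, the 4 strongest genes and every gene without a peak of each pathway group, the 5 peaks most like that of dld-1, peaks beside the members' 2 kb windows and genes whose start was nearer to a printed peak. Alternatives were other windows and assignments, stronger peaks, 1 replicate alone, merged peaks, ce10 and other motif windows; a background of matched gene length and the letters GACACT were added after seeing the data. The functions were tested on simulated data. Python 3.11.15, numpy 2.4.6, pandas 2.3.3 and matplotlib 3.10.9 were used. Nothing in the labels says whether the biological replicates were grown apart.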

Additional observations from a re-analysis of the deposited data

How the results depend on the processing

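Members with a peak numbered 6 of 8, and the share over all coding genes under each setting is given in brackets (here 28.0%). The strongest calls of replicate 1 alone gave 5, with pdhb-1 lost (27.8%), and those of replicate 2 alone gave 6 (27.7%). Windows of 1 kb (23.1%) and 500 bp (19.9%) upstream gave 5, without ogdh-1, and 5 kb gave 7, with pdha-1 (37.8%). A summit nearer to the gene's start than to any other gave 5, without pdhb-1 (19.9%), and any overlap 6 (29.3%). The relaxed list gave 8 (61.3%) and the strongest 3313 peaks 4 (16.8%). Only the strongest 1000 peaks moved the count beyond 1.5 times, to 2, dld-1 and pdhk-2 (5.76%). Coding genes with a peak numbered 5589, against 12236 with the relaxed list, 3349 with the strongest 3313 and 1151 with the strongest 1000; pathway genes numbered 39, against 25 and 9 with these shorter lists. The rank of the dld-1 peak was 18 in ce11, in ce10 and after merging, and 11 to 30 with 1 replicate. The median replicate difference of the member peaks, 0.19, became -0.11 with the median of all peaks taken off. Matches to the 8 motifs were 14 in all (windows times motifs), 11 within 100 bp and 15 within the peaks. No paired analysis was possible because there was 1 group. Each relaxed list ended at 30000 calls, so weaker calls could not be seen, and without depth no limit could be put on a gene with no call.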

Other observations

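The letters GACACT were noticed in the printed sequences of the 3 strongest upstream peaks, dld-1, pdhk-2 and dbt-1, and then searched on both strands within 100 bp of every summit. They were in 3 of the 8 member windows, these same ones. Over all 6626 windows 12.0% held them, 15.4% of the windows of the strongest 1000 peaks did, and 7.21% of windows 1000 bp from the summits did. The letters were chosen after the sequences were seen, so the count of members is a description with no test.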
